A study of Mus musculus with 30 samples.

Results

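The 9 genes that slow the cell cycle or respond to p53 and were followed here through regeneration of the mouse digit tip are Cdkn1a, Cdkn1b, Cdkn1c, Cdkn2a, Cdkn2b, Gadd45a, Gadd45b, Mdm2 and Trp53inp1. They were taken by symbol, from a list drawn up with earlier results of these data known, and all 9 were found among the 20321 genes of the deposited tables. The animals were adult male C57Bl/6 mice of 1 genotype, each with at most 33% of the distal phalanx (P3) of hindlimb digit 3 removed, and the wound was left to heal without sutures. The amputated digit was collected at 9 time points, on the first day at 0 h, 3 h, 6 h, 12 h and 24 h and later at 3 d, 7 d, 14 d and 21 d, from 6 mice at 7 d and 3 at every other time, and the 0 h mice are the only control. The labels count each sample as a mouse, although 0 h replicate 3 and 12 h replicate 2 carry the same animal code and date in their titles. Dates in the sample titles split the mice into an earlier campaign of 16 (July to August) and a later one of 14 (November to January), and what the dates mark is not stated. The 3 h and 12 h mice all belonged to the earlier campaign, the 21 d mice to the later one, so at these times campaign and time cannot be told apart. At 7 d, 3 mice, all of the later campaign, were labelled as left foot, and every other mouse as right foot.

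Progression through the cell cycle is driven by cyclin-dependent kinases (CDKs) and held back by 2 families of inhibitors. The Cip/Kip proteins p21 (Cdkn1a), p27 (Cdkn1b) and p57 (Cdkn1c) bind cyclin-CDK complexes, whereas the INK4 proteins p15 (Cdkn2b) and p16 (from Cdkn2a, which also encodes ARF) bind CDK4 and CDK6. The transcription factor p53 switches on Cdkn1a after damage or stress, together with Gadd45a, Trp53inp1 and Mdm2, whose product in turn marks p53 for degradation. In a healing digit tip, wound epidermis closes over the stump, bone is resorbed and a proliferating blastema rebuilds the phalanx.

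Of the 9 genes, 7 have an entry among the promoters of RefSeq (GRCm38.p6), and Cdkn1c and Trp53inp1 have none. The p53 decamer consensus, searched on both strands of the 250 bases before each start, occurred in 7.13% of 32851 promoters. Among the members it was found in Cdkn1a, in 1 of its 2 promoters, in Mdm2 and in Gadd45a, and it was also found in Ccng1, a p53 target outside the 9 whose values are given further on. Ccng1 was the only further p53 target searched by name. It is also the one called at 6 h and 12 h below, so its match is a description and no separate support. These 4 are printed 5′ to 3′ on the strand of the gene, with the matching letters in capitals, because they are the genes with a match among the members and Ccng1, the genes searched by name. They lie at chr17:29090729-29090978 (plus strand, Cdkn1a), chr10:117710759-117711008 (minus, Mdm2), chr6:67037408-67037657 (minus, Gadd45a) and chr11:40755287-40755536 (minus, Ccng1).
Cdkn1a: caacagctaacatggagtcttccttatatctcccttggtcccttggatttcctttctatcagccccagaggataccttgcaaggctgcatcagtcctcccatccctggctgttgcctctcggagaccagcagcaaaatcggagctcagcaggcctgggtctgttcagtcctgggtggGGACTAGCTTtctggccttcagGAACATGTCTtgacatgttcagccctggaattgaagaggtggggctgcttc
Mdm2: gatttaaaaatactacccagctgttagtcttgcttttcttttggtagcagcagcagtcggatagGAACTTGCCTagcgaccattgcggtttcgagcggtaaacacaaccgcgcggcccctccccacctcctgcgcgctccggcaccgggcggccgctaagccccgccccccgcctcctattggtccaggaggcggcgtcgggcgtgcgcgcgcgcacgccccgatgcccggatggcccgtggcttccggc
Gadd45a: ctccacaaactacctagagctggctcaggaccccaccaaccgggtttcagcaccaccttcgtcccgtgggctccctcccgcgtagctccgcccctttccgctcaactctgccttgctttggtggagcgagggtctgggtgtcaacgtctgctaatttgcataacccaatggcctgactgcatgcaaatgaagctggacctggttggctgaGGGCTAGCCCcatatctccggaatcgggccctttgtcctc
Ccng1: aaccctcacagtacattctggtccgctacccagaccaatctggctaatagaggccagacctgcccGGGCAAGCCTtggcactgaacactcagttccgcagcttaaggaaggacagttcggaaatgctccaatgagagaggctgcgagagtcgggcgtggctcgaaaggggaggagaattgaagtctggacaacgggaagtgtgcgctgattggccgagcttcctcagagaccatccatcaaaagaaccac
Cdkn1a held 2 matches, which begin at −73 and −51 counted back from the start, where −1 is the last base printed, against 1 each in Mdm2, Gadd45a and Ccng1. The promoters of Cdkn1b, Cdkn2a, Cdkn2b and Gadd45b held no match in this window. The AP-1 motif TGANTCA, which 6.75% of all promoters hold, was in none of the members' promoters.

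The 9 genes differed widely in level. On the TPM scale, which is per transcript length and so allows genes to be compared, the mean over the 30 mice was highest for Cdkn1a (179.9 TPM, from 109 to 277), followed by Cdkn1b (94.6), Trp53inp1 (80.1), Mdm2 (78.3), Gadd45a (70.1), Gadd45b (47.6) and Cdkn2b (28.1). Cdkn1c stood far lower at 6.03 TPM (from 1.77 to 14.8) and Cdkn2a near 0 at 0.125 TPM. Reads were found in every mouse for 8 of the genes, and those 8 passed the filter on low counts. Gene levels by mouse and time point below are in CPM scaled by TMM (counts relative to the library total), which allows a gene to be compared between mice but not with another gene, and sums over marker genes are in TPM. The expected counts of a mouse summed to between 3167625 and 16277816, with medians of 5083528 in the earlier and 9836324 in the later campaign.

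Each time point was compared with 0 h to ask when after injury a brake on division or a p53 target changes, and neighbouring times to ask where a change begins or ends. Of the 8 tested members, 2 changed over the 9 time points (edgeR quasi-likelihood F-test, adjusted p under 0.05): Trp53inp1 (adjusted p = 0.000191) and Cdkn2b (adjusted p = 0.00649). Over all 13793 tested genes 9.01% passed. Against 0 h, 1 of 8 members was called at 6 h, where 0.189% of all genes were (Trp53inp1, higher), and 1 of 8 at 7 d, where 2.34% were (Cdkn2b, lower). No member passed at 3 h, 12 h, 24 h, 3 d, 14 d or 21 d, where 0.254%, 0.167%, 0.493%, 0.551%, 1.61% and 1.94% of all genes did. At an unadjusted p under 0.05, these 6 times gave 3, 1, 0, 2, 2 and 1 of the 8 members, and DESeq2 called none at any of them. Over the 7 steps between neighbouring times from 3 h on, 0.0963% of 96551 tests passed, and the members gave 1 call, the rise of Trp53inp1 from 3 h to 6 h. All comparisons with 0 h share the same 3 control mice and are not independent of each other. RNA came from whole tissue, in which fewer cells of a type and less RNA per cell cannot be told apart.

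**Figure D1:**
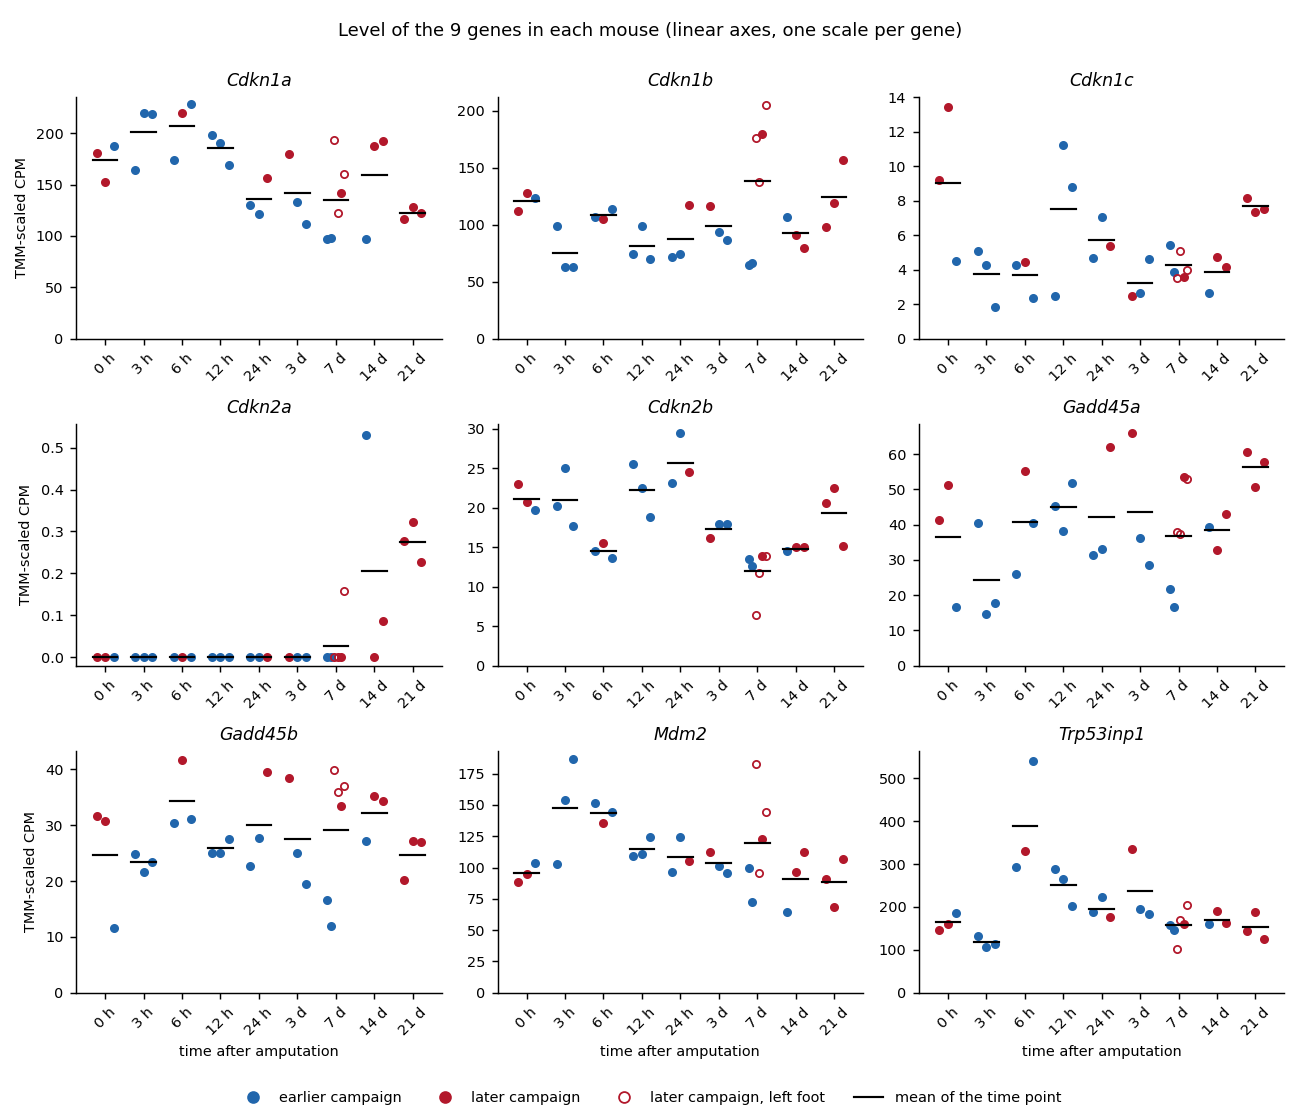
Level of each of the 9 genes in every mouse (y axis, TMM-scaled CPM, linear, a scale of its own for each gene) by time after amputation (x axis). Points are single mice coloured by campaign, open points are left-foot mice and bars are means: Trp53inp1 stood highest at 6 h (293 to 541 CPM), Cdkn2b lowest at 7 d (6.46 to 13.9), and Cdkn1b at 7 d fell into a low earlier-campaign pair and 4 higher later-campaign mice.

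Trp53inp1, a p53-induced nuclear protein that takes part in stress responses and autophagy, rose between 3 h and 6 h. Its level was 147, 160.1 and 187 CPM in the 3 mice at 0 h. At 3 h it was 133, 107 and 113 CPM, so that every mouse lay below all 0 h mice, a difference that did not pass the test (log2 −0.48, standard error (SE) 0.25, adjusted p = 0.485). At 6 h it was 293, 331 and 541 CPM, above every mouse of 0 h, 3 h, 12 h and 24 h. This was 2.36-fold the 0 h level (log2 1.24, SE 0.25, adjusted p = 0.0203) and 3.30-fold the 3 h level (log2 1.72, SE 0.25, adjusted p = 0.00264).

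After 6 h no step between neighbouring times was called for Trp53inp1. At 12 h the mice held 288, 265 and 202 CPM, all above the 0 h mice, with a log2 difference of 0.61 (SE 0.24) that did not pass (adjusted p = 0.563). By 24 h the mean was 196 ± 24.1 CPM (SD, n = 3), and at 7 d the 6 mice ran from 102 to 205 with a median of 159, across the 0 h range. One mouse at 3 d, the sole later-campaign mouse of that time, held 334 CPM against 194 and 184 in the others. In the order of means, 6 h (389 ± 134 CPM, SD, n = 3) stood above 12 h without overlap, although 1 mouse at 3 d reached 334 CPM, and each of the other neighbouring times overlapped. Within the earlier campaign the difference from 0 h to 6 h was log2 1.09 (2 mice against 1) and within the later one log2 1.10 (1 mouse against 2). The call at 6 h against 0 h was lost without 0 h replicate 1 (adjusted p = 0.167), 0 h replicate 2 (0.209) or 6 h replicate 3, the mouse at 541 CPM (0.246, log2 0.93). The rise from 3 h to 6 h, which does not compare with 0 h, was called with each of the 30 mice left out in turn, with adjusted p from 0.000562 to 0.0333.

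Mdm2, the ubiquitin ligase that limits p53 and is itself a p53 target, had its highest means at 3 h and 6 h, without a call. It measured 88.7, 94.9 and 103 CPM at 0 h, 103, 154 and 187 at 3 h and 152, 135 and 144 at 6 h. All mice at 6 h lay above all 0 h mice, and at 3 h 2 of 3 did. The log2 differences from 0 h were 0.63 at 3 h (SE 0.25, adjusted p = 0.356) and 0.59 at 6 h (SE 0.25, adjusted p = 0.584). From 12 h (115 ± 8.41 CPM, SD, n = 3) to 21 d (88.8 ± 19.3, n = 3) the means lay between 88.8 and 119.6 CPM. The 6 mice at 7 d spread from 72.7 to 182 CPM, with a left-foot mouse at the top, and all 8 neighbouring pairs in the order of means overlapped. Its course as a whole was not called (adjusted p = 0.205).

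Cdkn1a, the p21 inhibitor through which p53 arrests the cycle, was the most abundant member per length, and it was not called at any time. At 0 h the mice held 181, 153 and 188 CPM, and at 6 h, its highest mean, 174, 219.7 and 229. At 24 h the values were 131, 122 and 157, and at 21 d, its lowest mean, 116, 129 and 123, below all 3 mice at 0 h. The largest difference from 0 h was the one at 21 d (log2 −0.50, SE 0.24, adjusted p = 0.521), and the highest mean was 1.69 times the lowest. The change over the 9 time points was not called either (adjusted p = 0.125).

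For Cdkn1a the campaigns stood apart at late times. At 7 d the 2 earlier mice held 96.9 and 98.04 CPM and the 4 later ones from 122 to 193, and at 14 d the earlier mouse held 97.1 against 187 and 192 in the later ones. Of the 6 times with mice of both campaigns, the later mice were higher at 5, by 0.40 on average (log2). Within the earlier campaign, the log2 difference of 7 d from 0 h was −0.94, with 2 mice against 1, and within the later campaign −0.13, with 4 mice against 2. With campaign as a covariate, the change over the 9 time points was called (adjusted p = 0.00224), as it was with DESeq2 (0.0373), without the left-foot mice (0.0377) or without 7 d replicate 3 alone (0.0464).

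Cdkn1b encodes p27, which holds resting cells out of the cycle. Its level at 0 h was 112, 128 and 123 CPM. At 3 h it was 98.5, 62.8 and 63.3, below all 0 h mice, with a log2 difference of −0.69 (SE 0.32) that did not pass (adjusted p = 0.425). At 6 h it was 106, 105 and 113. The highest mean, at 7 d, joined mice that did not overlap: the 2 earlier mice held 65.0 and 66.0 CPM, and the 4 later ones 138, 177, 179 and 205.

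That split was tested in the 21 mice of the 6 times at which both campaigns are present. Cdkn1b was the 1 member of 8 whose time course differed between campaigns (edgeR, campaign by time interaction, adjusted p = 0.0193), where 0.883% of 13587 genes were called. The log2 difference of 7 d from 0 h was −0.90 among earlier mice and 0.53 among later ones. At 0 h the campaigns overlapped, with 123 CPM in the earlier mouse and 112 and 128 in the later ones, and at 14 d the order was turned, with 106 CPM in the earlier mouse and 91.2 and 79.4 in the later ones. The interaction remained called without the left-foot mice (adjusted p = 0.0116). It was lost without 24 h replicate 1 (0.0684) or replicate 2 (0.0504) and without 7 d replicate 1 (0.0847) or replicate 2 (0.0894), the 2 earlier mice of each of these times. Over the 9 time points together, Cdkn1b was not called (adjusted p = 0.211), and it was called without 7 d replicate 1 (0.0460) or replicate 2 (0.0417). Sequencing depth also differed between the campaigns, as given above, and its part in these values was not tested.

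Cdkn1c, the imprinted gene of p57, was scarce, with its highest mean at 0 h, and was not called. At 0 h the 2 later-campaign mice held 9.20 and 13.4 CPM and the 1 earlier mouse 4.48, so that the control mice themselves were widely spread. At 3 d, its lowest mean, they held 2.46, 2.64 and 4.61 CPM (log2 −1.50, SE 0.50, adjusted p = 0.312), and at 6 h 4.27, 4.46 and 2.35, below all 0 h mice (log2 −1.28, SE 0.48, adjusted p = 0.493). The 6 mice at 7 d ran from 3.51 to 5.44 CPM with a median of 3.92 (log2 −1.10, SE 0.40, adjusted p = 0.173). The falls differed by campaign, as differences from 0 h in mean log2(CPM + 1). Among earlier mice these were −0.28 at 3 d, −0.38 at 6 h and 0.03 at 7 d. Among later mice they were −1.81, −1.15 and −1.28. At 21 d the level was 8.15, 7.34 and 7.52 CPM, within the 0 h range and above every mouse at 14 d (2.65, 4.73 and 4.16). The adjusted p over the 9 time points was 0.126. It was 0.0309 with DESeq2 and 0.0435 without 12 h replicate 1, which held 2.48 CPM against 11.2 and 8.76 in the other mice at 12 h.

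Cdkn2b, the p15 inhibitor known as a target of TGF-β signalling, was the one member lower than at 0 h by the test. It measured 23.0, 20.8 and 19.7 CPM at 0 h and 23.2, 29.5 and 24.5 at 24 h, its highest mean. At 7 d the 6 mice held 6.46 to 13.9 CPM with a median of 13.1, all below every mouse at 0 h, 0.57 times its level (log2 −0.82, SE 0.20, adjusted p = 0.0223). At 14 d it was 14.5, 15.0 and 15.0, still below all 0 h mice, and at 21 d 20.6, 22.5 and 15.2, back in the 0 h range in 2 of 3 mice. A first dip came at 6 h, with 14.6, 15.5 and 13.7 CPM, below all mice of 0 h, 3 h and 12 h, and it did not pass (log2 −0.54, SE 0.24, adjusted p = 0.598 against 0 h).

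In the order of means, Cdkn2b at 24 h, 12 h, 0 h, 3 h, 21 d and 3 d overlapped from neighbour to neighbour. A gap lay between 3 d (16.1 to 18.0 CPM) and the group of 14 d, 6 h and 7 d. Even so, 21 d replicate 3 held 15.2 CPM, below 6 h replicate 2 at 15.5 CPM. The difference of 7 d from 0 h was log2 −0.56 among earlier mice (2 against 1) and −0.93 among later ones (4 against 2), and the campaign by time interaction gave an adjusted p of 0.997. One left-foot mouse, replicate 3, lay lowest at 6.46 CPM, with the next at 11.7. This mouse also had a count in the fewest genes of any mouse (12191). Without the 3 left-foot mice the difference was log2 −0.64 and was not called (adjusted p = 0.0888), and without 0 h replicate 1, 2 or 3 the adjusted p was 0.200, 0.109 and 0.0912, with log2 differences from −0.73 to −0.83. The change over the 9 time points was called with each mouse left out in turn, with adjusted p from 0.00272 to 0.0244.

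Markers of other cell types moved over the same times. Of 7 myeloid markers, 4 were called higher at 7 d (Csf1r, Ptprc, S100a8 and S100a9), where 2.34% of all genes were called. The summed level of the 7 went from 119 to 165 TPM at 0 h to 489 to 1058 TPM at 7 d. Of 5 osteoblast markers, 2 rose at 7 d (Col1a1 and Ibsp), with summed levels of 558 to 1303 TPM at 0 h, 2362 to 3552 at 7 d and 6965 to 9994 at 21 d. The 5 keratinocyte markers, with no call at any time, summed to 58742 to 64150 TPM at 0 h and 37865 to 53443 at 7 d. All 5 keratinocyte markers were above 0 in every mouse, as were Col1a1, Ibsp, Alpl and Sp7 of the osteoblast markers, while Bglap was listed at 0 in 5 mice. Among the other markers, Col3a1 of the fibroblasts was called higher at 7 d, 14 d and 21 d, Cdh5 of the endothelium higher at 7 d and the globin gene Hbb-bs lower from 3 d to 21 d, and none of the 3 Schwann cell markers was called. At 6 h, the time of the Trp53inp1 call, the keratinocyte markers summed to 49314 to 56129 TPM, and the myeloid markers to 89.7 to 167 TPM. The part of these shifts in the levels of Cdkn2b and Trp53inp1 was not tested.

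Cdkn2a, next to Cdkn2b on the chromosome (chr4:89274471-89294653 and chr4:89306299-89311039, GRCm38, both on the minus strand), was at the limit of detection. None of the 18 mice from 0 h to 3 d held a single count of it among 114437276 counts, which allows a level of up to 0.0262 CPM. At 7 d, 1 of 6 mice held 1 count. At 14 d the mice held 3, 0 and 1 counts and at 21 d 3, 5 and 2. Pooled, the 14 counts in 5 of 6 mice at 14 d and 21 d amount to 0.217 CPM, above the limit that the 0 counts of the first 3 days allow. Pooling leaves out the spread between mice, which the limit does not cover. The mouse with 3 counts at 14 d was the 1 earlier-campaign mouse of that time. The late mice held 5698534 to 16277816 total counts, against 3167625 to 12773273 from 0 h to 3 d. The lowest of these late totals was that of the 14 d mouse with 3 counts. As a pool, the early mice held more than the 64618873 counts of the late ones. So few counts did not pass the filter. Without it, the change over the 9 time points gave an adjusted p of 0.264. The count of the gene sums the p16 and ARF transcripts, which it cannot separate.

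**Figure D2:**
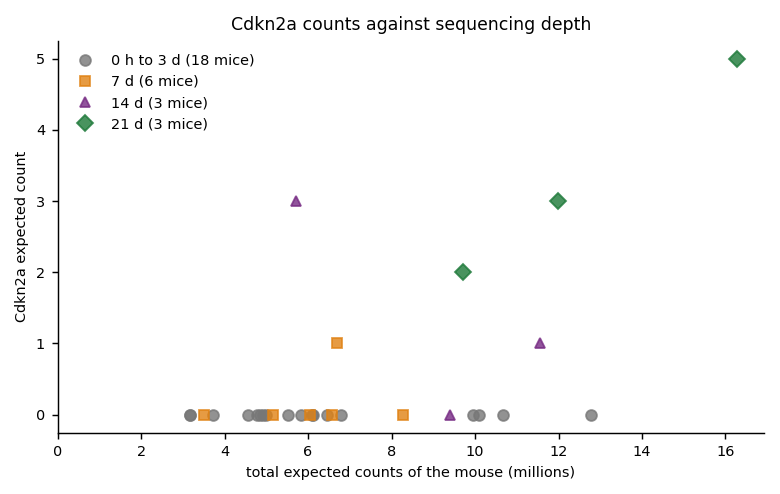
Expected counts of Cdkn2a in each mouse (y axis) against the total expected counts of that mouse (x axis), with symbols for time. All 18 mice from 0 h to 3 d lie at 0, including those with up to 12773273 counts in total, and 5 of the 6 mice at 14 d and 21 d hold 1 to 5 counts.

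Gadd45a and Gadd45b, stress sensors that act on CDK1 and on p38 and JNK signalling, spread widely between mice of one time. Gadd45a held 41.2, 51.3 and 16.6 CPM at 0 h, 40.4, 14.7 and 17.7 at 3 h and 60.7, 50.6 and 57.8 at 21 d, its highest mean (log2 0.62 against 0 h, SE 0.41, adjusted p = 0.821). Gadd45b held 31.7, 30.8 and 11.5 CPM at 0 h and 30.3, 41.7 and 31.1 at 6 h, its highest mean (log2 0.47 against 0 h, SE 0.36, adjusted p = 0.892). Their adjusted p over the 9 time points was 0.597 and 0.884, and the highest mean was 2.32 and 1.47 times the lowest. All 8 neighbouring pairs of times overlapped for both genes.

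The 2 campaigns differed in these genes, which is given as a description without a test. Later mice held more Gadd45b than earlier ones at all 6 times with both, by 0.81 on average (log2, from 0.34 to 1.36), and more Gadd45a at 5 of 6, by 0.87 on average. At 7 d the 2 earlier mice held 16.6 and 12.0 CPM of Gadd45b, against 33.5 to 39.9 in the 4 later ones. With campaign as a covariate, Gadd45b was called over the 9 time points (adjusted p = 0.0411) and Gadd45a was not (0.126). For Trp53inp1 and Cdkn2b the mean campaign difference was 0.04 and −0.02. Depth moved with campaign too, and its part was not tested.

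**Figure D3:**
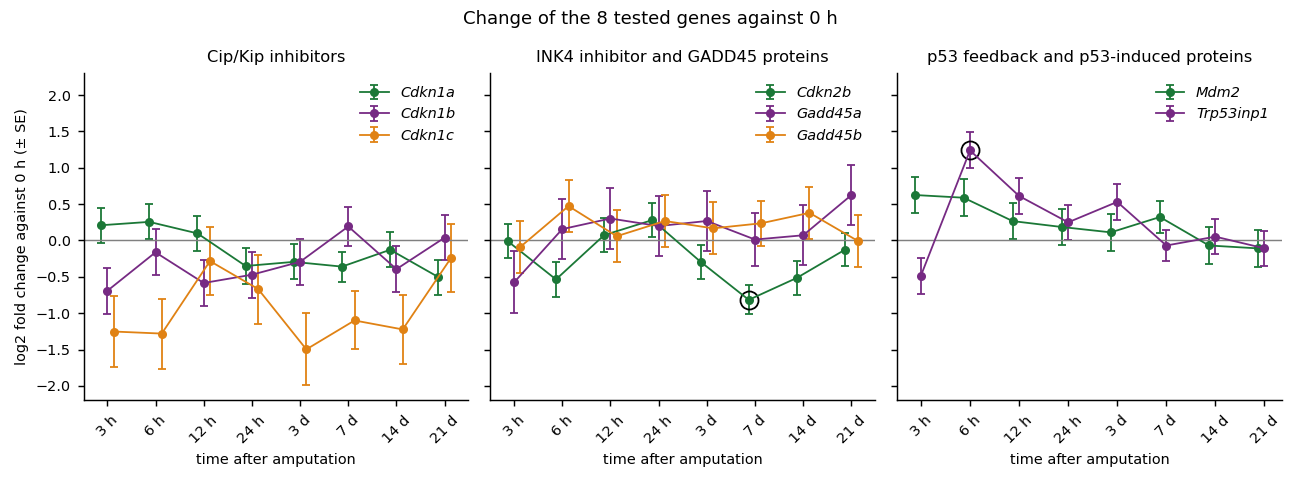
Log2 fold change against 0 h (y axis, edgeR, error bars are SE) of the 8 tested genes by time after amputation (x axis), in 3 panels by family. Circled points are the calls at an adjusted p under 0.05, Trp53inp1 at 6 h (1.24) and Cdkn2b at 7 d (−0.82). The other points near or past 1 SE from 0 did not pass, among them Cdkn1c at 3 d (−1.50) and Mdm2 at 3 h (0.63).

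A wider list of 28 further p53 targets, also drawn up with earlier results known and 27 of which were tested, held 8 genes that changed over the 9 time points, against the 9.01% of all genes given above: Btg2, Ccng1, Ddit4, Eda2r, Pmaip1, Polk, Sfn and Tnfrsf10b. The count moved with single mice, from 4 to 10 with each left out in turn. It was 4 or 5 without 0 h replicate 1 or 2, 3 h, 6 h or 12 h replicate 2 or 3, 7 d replicate 4 or 6, or any 1 mouse at 14 d or 21 d. Of the 8 genes, Ccng1, Pmaip1 and Polk held their call with each mouse left out, whereas Btg2, Tnfrsf10b, Eda2r and Ddit4 held it in 10, 12, 13 and 23 of the 30 fits. Against 0 h, 1 of the 27 was called at 6 h and 1 at 12 h (Ccng1, higher both times), 1 at 24 h and 1 at 14 d (Btg2, lower), 2 at 7 d (Btg2, lower, and Pmaip1, higher), 1 at 21 d (Ccng1, lower) and none at 3 h and 3 d. The shares of all tested genes were 0.189% at 6 h, 0.167% at 12 h, 0.493% at 24 h and 1.61% at 14 d. They were 2.34% at 7 d, 1.94% at 21 d, 0.254% at 3 h and 0.551% at 3 d.

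Ccng1, the p53-induced cyclin G1, was higher than at 0 h at 6 h and 12 h and lower at 21 d. It measured 53.4, 64.8 and 77.6 CPM at 0 h, 161, 132 and 172 at 6 h and 175, 160.2 and 165 at 12 h. No mouse at 6 h or 12 h overlapped with 0 h, and the log2 differences were 1.25 (SE 0.24, adjusted p = 0.0149) and 1.36 (SE 0.24, adjusted p = 0.00696). Within campaigns the 6 h difference was 1.09 in the earlier and 1.15 in the later one. At 21 d Ccng1 had fallen to 33.3, 35.4 and 21.9 CPM, below all 0 h mice (log2 −1.11, SE 0.24, adjusted p = 0.00863). The 6 h call was lost without 0 h replicate 1 (0.167) or 2 (0.139) or 6 h replicate 1 (0.0711) or 3 (0.103), the 12 h call without 0 h replicate 1 (0.116) or 2 (0.0667), and the 21 d call without 0 h replicate 3 (0.0844) or 21 d replicate 3 (0.0626), all adjusted p of edgeR.

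Another 4 genes had their highest mean at 6 h or 12 h and were called over the course, without a call against 0 h. Mean levels at 0 h, 6 h and 12 h were 5.79, 18.7 and 21.2 CPM for Eda2r, a receptor of the TNF receptor family, 20.4, 39.2 and 36.2 for Polk, a DNA polymerase that copies past lesions, and 14.1, 31.1 and 24.3 for Tnfrsf10b, a receptor for the death ligand TRAIL. For Mdm4, the partner of Mdm2 in holding p53 down and the 1 called gene of 11 further brakes and p53 regulators, they were 31.6, 50.1 and 58.4 CPM. A count of 1 in 11 is near the 9.01% of all tested genes called over the course, and the call of Mdm4 held in 6 of the 30 fits. Mdm4 differed between campaigns already at 0 h, with 46.1 CPM in the earlier mouse and 25.8 and 23.0 in the later ones. Its log2 difference from 0 h was 0.09 among earlier mice and 1.074 among later ones at 6 h, and 0.33 among the earlier mice, the only ones, at 12 h. The highest mean of 13 of the 27 tested targets (48.1%) fell at 6 h or 12 h, as it did for 22.7% of all tested genes and for 3 of the 8 tested members (Cdkn1a, Gadd45b and Trp53inp1). Joining these 2 times was not among the planned comparisons, and the targets described above had their highest means there. The shares are therefore a description and no separate support. The median log2 difference from 0 h over the 27 targets was 0.29 at 6 h and 0.22 at 12 h, beside −0.01 and 0.01 over all tested genes. All 12 h mice were of the earlier campaign.

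Other targets took other courses. Btg2, an antiproliferative gene that serum and injury also induce, was highest at 0 h (227 ± 33 CPM, SD, n = 3) and fell to 82.0 ± 27 at 24 h (log2 −1.47, SE 0.35, adjusted p = 0.0441), 102 ± 39 at 7 d (n = 6, log2 −1.15, SE 0.28, adjusted p = 0.0235) and 92.0 ± 26 at 14 d (log2 −1.30, SE 0.34, adjusted p = 0.0469). Each of these 3 calls was lost without any 1 of the 0 h mice, and the 14 d call held in 14 of the 30 fits. The 24 h call was also lost without 24 h replicate 1 or 2, 12 h replicate 2, 7 d replicate 4 or 21 d replicate 2. Among earlier and later mice the log2 differences of Btg2 were −1.98 and −0.88 at 24 h, −2.23 and −0.74 at 7 d and −2.08 and −0.96 at 14 d. Pmaip1, which encodes the cell death protein Noxa, rose from 6.49 ± 3.2 CPM at 0 h to 19.8 ± 6.2 at 7 d (n = 6, log2 1.63, SE 0.34, adjusted p = 0.00717, and 0.108 without 0 h replicate 1), with log2 differences of 0.55 among earlier and 2.02 among later mice. Ddit4, an inhibitor of mTOR signalling, had its highest mean at 3 d (72.5 CPM), and Sfn, the keratinocyte gene stratifin, at 3 h (1599 CPM against 899 at 0 h), neither with a call against 0 h. The call of Sfn over the course was lost without 3 h replicate 2 (adjusted p = 0.0863) or 3 (0.135). The most abundant target, Perp, a desmosomal protein of skin, gave an adjusted p of 0.633 over the course.

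**Figure D4:**
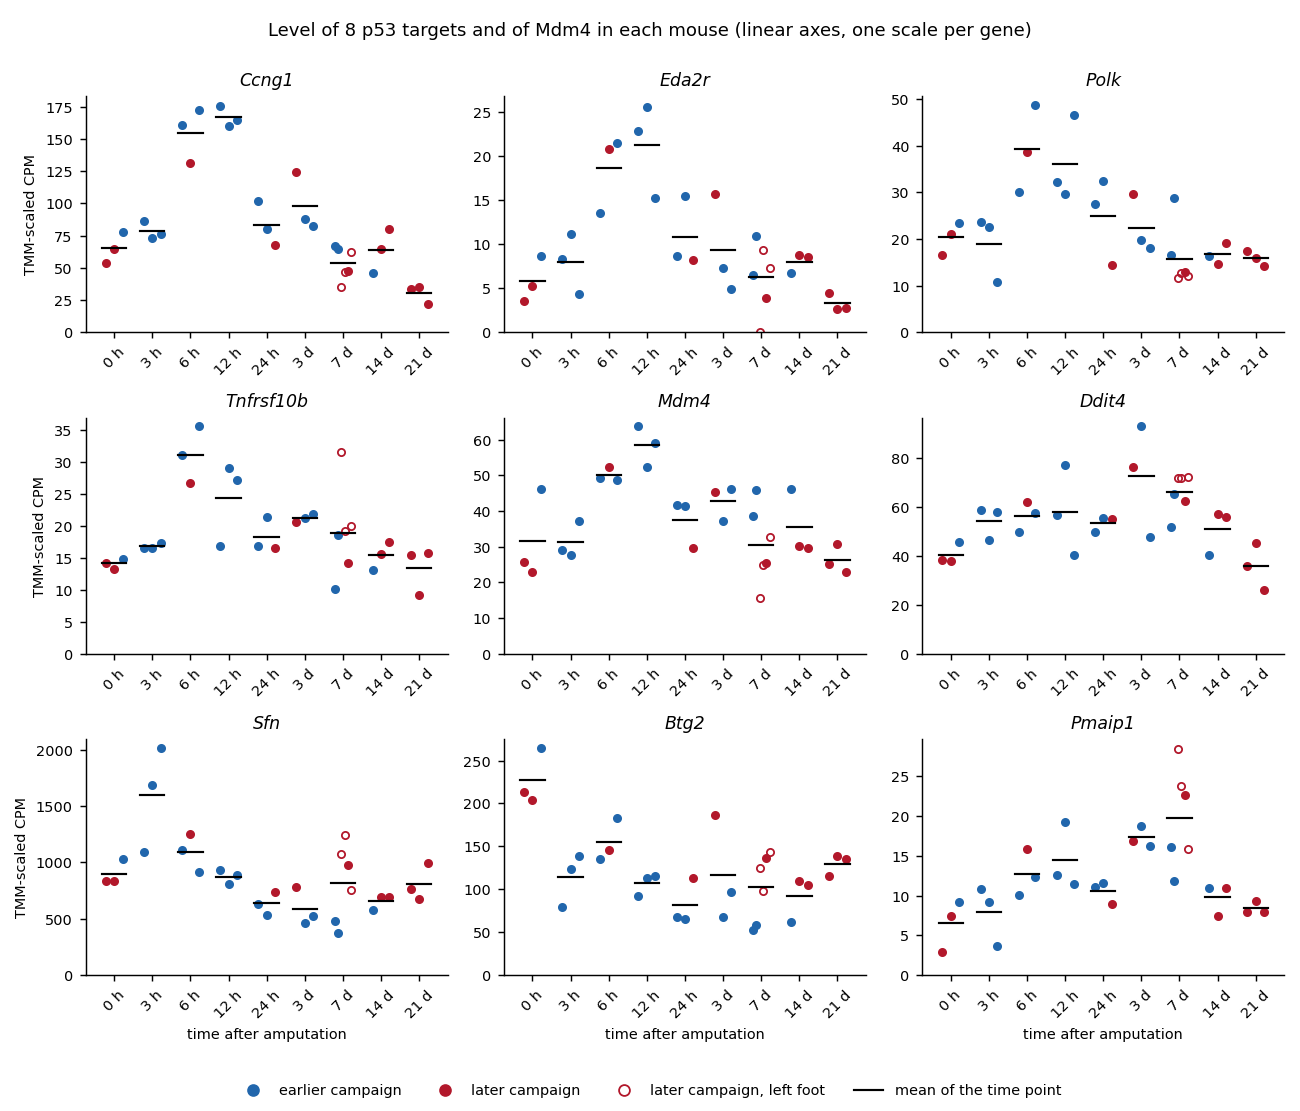
Level in every mouse (y axis, TMM-scaled CPM, linear, a scale of its own for each gene) of the 8 further p53 targets called over the 9 time points and of Mdm4, by time after amputation (x axis), with points coloured by campaign, open points for left-foot mice and bars for means. Ccng1 rises from 53.4 to 77.6 CPM at 0 h to 132 to 175 at 6 h and 12 h, and Eda2r, Polk, Tnfrsf10b and Mdm4 have their highest means at the same times.

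Among 13 cyclins, CDKs and proliferation genes, 5 changed over the course (Ccna2, Ccnd2, Cdk1, Cdk2 and Mki67), beside 9.01% of all tested genes. With campaign as a covariate, 2 of the 13 were called. The call of Cdk1 was lost without 3 h replicate 2 (adjusted p = 0.0528) or 3 (0.0626), and that of Cdk2 without 7 d replicate 3 (0.0705), 5 (0.0621) or 6 (0.0588). Against 0 h a single one was called, at 3 h, where 0.254% of all genes were. It was Ccna2, the S and G2 phase cyclin (40.8 CPM at 0 h and 17.7 at 3 h, log2 −1.20, SE 0.25, adjusted p = 0.0301). That call was lost without 0 h replicate 1 or 2 or any 1 mouse at 3 h, with adjusted p from 0.0598 to 0.164. Mki67, a marker of cycling cells, had means of 291 CPM at 0 h, 125 at 3 h and 288 at 7 d. Ccnd2 had its highest mean at 12 h (465 CPM against 236 at 0 h).

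The 0 h mice differed from all later ones in a further respect. Of 12 immediate-early genes, 6 changed over the course (Atf3, Dusp1, Egr1, Fos, Fosb and Jun), beside 9.01% of all tested genes. Every call against 0 h was in the lower direction, with no call at 21 d. The calls numbered 2 at 3 h and 7 at 7 d, where 0.254% and 2.34% of all genes were called. At 3 h the call of Fos was lost without any 1 mouse at 0 h or 3 h, and without some mice of other times. That of Jun was lost without 0 h replicate 1 or 2, any 1 mouse at 3 h or 7 d replicate 6. The calls of Dusp1 at 6 h and 3 d and of Egr1 at 24 h were lost without any 1 of the 0 h mice. Junb and Ier3 had their highest mean at 24 h and the other 10 at 0 h. The summed level of the 12 genes was 1662 to 2439 TPM at 0 h, 426 to 1268 from 3 h to 14 d and 982 to 1425 at 21 d. Fos alone fell from 597 CPM at 0 h to 61.5 at 6 h (log2 −3.29, SE 0.50, adjusted p = 0.00241). The part of this in the comparisons with 0 h, including those of Trp53inp1 and Cdkn2b, was not tested. From 3 h to 6 h, the step at which Trp53inp1 rose, mean Fos went from 138 to 61.5 CPM and Fosb from 174 to 14.7. Egr1 held 88.9 and 89.9 CPM at these times. The part of these shifts in the rise of Trp53inp1 was not tested either.

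As a description of likeness, each tested member was correlated with 10857 expressed genes over the 30 mice, on the log2(CPM + 1) scale. These values share library, depth and campaign and carry no test. The closest gene was Slc35e3 for Cdkn1b (Pearson r = 0.891), Rnf11 for Gadd45b (0.806), Polr2j for Cdkn2b (0.798), Mat2a for Mdm2 (0.772), S1pr5 for Gadd45a (0.771), Cpox for Trp53inp1 (0.762), Abhd6 for Cdkn1a (0.756) and Bud13 for Cdkn1c (0.666). Mat2a was also second closest to Cdkn1a (0.740). Among the members themselves, Gadd45a and Gadd45b were the most alike (0.682), then Cdkn1a and Mdm2 (0.674) and Cdkn1b and Gadd45a (0.535). Cdkn1b and Cdkn2b ran most against each other (−0.427).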

How the data were processed

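RNA of the amputated digit was measured by RNA-seq in 30 mice. Per the paper's methods and the labels, the authors mapped reads to Ensembl mouse genes with Bowtie and deposited, from RSEM 1.2.3, expected counts per gene without normalization and TPM per mouse (mm10). They also deposited an average TPM signal per time point, scaled by median-by-ratio normalization, which was not used here.

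Expected counts were rounded to whole numbers and tested with edgeR 4.0.16 (R 4.3.3), with its filter on low counts by time point, TMM scaling, quasi-likelihood tests on all 30 mice without covariates, and Benjamini-Hochberg adjustment over the 13793 genes kept, at 0.05. SE is the log2 fold change over the square root of F. Alternatives were DESeq2 1.42.0, its size factors, other filters, a threshold of 0.01, a campaign term, fits of 2 time points alone, leaving out left-foot animals, Spearman in place of Pearson correlation, and each mouse left out. After the data were seen, alternatives were added for the interaction and for the count of other p53 targets. The tests were tried on simulated data first.

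The members and lists were chosen with earlier results of these data known. Named genes were the members, the 3 genes most like each (Pearson, mean of at least 5 CPM), and of each list those called over the time points and the 3 with the highest mean TPM. Group came from the time point label of each sample, and campaign and foot from the sample titles. Replicate numbers count the samples within a time point. No pair of the 39 pairs of mice at one time looked like repeat deposits of one library (chi-square of 9.83 to 94.7 for each degree of freedom). Total counts ran from 3167625 to 16277816, and a pooled count of 0 was given the limit of 3 counts, which covers counting error alone because copies made by PCR are not separate molecules. Gene positions are those of GENCODE M21 (GRCm38) and promoters those of RefSeq. Exons of Cdkn1a, Cdkn1c and Gadd45a share 273, 625 and 337 bases with a gene on the other strand that is not a separate entry of the deposited tables. Counting is not stated to use strand, so such reads cannot be told apart.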

Additional observations from a re-analysis of the deposited data

Results flagged for a closer look

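The time course of Cdkn1b differed between the campaigns by the test of that difference (edgeR, campaign by time interaction, adjusted p = 0.0193, 21 mice of 6 time points), with the values of each campaign given above.

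At 7 d, with 6 mice, the highest or lowest mouse was checked in 23 genes (the members and the p53-linked genes named above), and chance marks about 1 in 20 such groups. Cdkn2b replicate 3, a left-foot mouse, lay below the others at 6.46 CPM, and its gap to the next mouse was 0.773 of the range of the 6. Eda2r held no count in the same mouse, against 25 to 65 counts in the other 5, a gap of 0.636 of the range. That mouse had a count in 12191 genes, the fewest of any mouse, with 6046501 counts in total. It was also lowest for Ccng1, Cdkn1c, Mdm4, Polk and Trp53inp1. For Cdkn1a, Ei24, Gadd45b, Mdm2, Pmaip1 and Tnfrsf10b it was highest, and none of these further genes was flagged. For Cdkn2a the 1 count of replicate 6 made up the whole range, a ratio of 1.0, which says no more than that the other 5 mice held 0. No explanation was tested for any of these.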

How the results depend on the processing

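The differences that were called (Trp53inp1 at 6 h against 0 h and 3 h, Cdkn2b at 7 d against 0 h) kept their direction under every alternative run. Differences that were not called could change sign with a mouse left out, such as Cdkn1a at 14 d (log2 −0.13, from −0.30 to 0.14), Cdkn1c at 12 h (−0.28, from −0.69 to 0.15) and Cdkn1b at 21 d (0.04, from −0.16 to 0.19). The count of members called over the 9 time points was 2, and 4 with the DESeq2 test and 4 with campaign as a covariate, and 2 to 3 with each mouse left out in turn. The 1 call at 6 h became 0 with only the 2 time points fitted and 0 at a threshold of 0.01. The 1 call at 7 d became 0 under both of these and 0 without the left-foot mice. With each mouse left out, both ran from 0 to 1. The 1 call over the steps between neighbouring times became 0 with only the 2 time points fitted, where Trp53inp1 gave log2 1.74 and an adjusted p of 0.0629. The interaction of campaign with time gave 0 to 1 members in the 16 fits that leave out a mouse whose campaign keeps another mouse at that time. Fits of 2 time points alone hold fewer mice. For the other changes the cause was not tested. The count of other p53 targets was 8, and 11 with campaign as a covariate and 10 with the DESeq2 test. The counts of 0 at the other 6 times stayed 0 under every alternative run. By Spearman correlation, 2 of the 3 most alike genes stayed in the top 3 for Cdkn1a and Gadd45b, 1 for Cdkn1b, Cdkn2b, Gadd45a, Mdm2 and Trp53inp1 and 0 for Cdkn1c. No paired analysis was possible because the labels number no replicates across time points. Depth limits Cdkn2a, for which 3 counts amount to 0.0262 CPM in the pooled mice of 0 h to 3 d, 0.0828 at 7 d and 0.0464 at 14 d and 21 d together, and to more in a single mouse.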
